A study of Mus musculus with 18 samples.

Results

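The T-cell receptor chains have no signalling tails of their own, and thymocytes read the receptor through the CD3 chains and a short chain of kinases and adaptors. The 9 genes described here are Ptcra, Cd3e, Cd3g, Cd3d, Cd247, Lck, Zap70, Lat and Lcp2, taken by gene name from the authors' deposited comparison tables and joined by Ensembl identifier to the deposited counts. They are 9 of the 22619 genes in the count table, and every member passed the low-count filter of every comparison.

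At the DN3 stage a newly rearranged beta chain pairs with the invariant pre-TCR alpha chain, the product of Ptcra, and the pair signals with the CD3 chains through the pre-TCR. CD3 epsilon, gamma and delta (Cd3e, Cd3g, Cd3d) and the zeta chain (Cd247) carry the tyrosine motifs that the kinase Lck phosphorylates. Zap70 docks on these motifs and phosphorylates the membrane adaptor Lat and the cytosolic adaptor SLP-76, the product of Lcp2. Cells that pass this checkpoint become DP cells, in which an alpha chain takes the place of the pre-TCR alpha chain.

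Wild-type mouse thymi had been grafted for 28 days, and DN3 and DP thymocytes were sorted from them by flow cytometry. Turnover and autonomy are the labels' conditions; in work on thymus grafts, turnover means replacement of thymocytes by incoming progenitors and autonomy means that the graft maintains itself without them. Neither the hosts nor the strain, sex or age of the mice is stated in the labels. Total counts in the 4 DN3 turnover libraries ran from 12260295 to 14846126, in the 5 DN3 autonomy libraries from 7426834 to 21808512, in the 4 DP turnover libraries from 6329039 to 24191044, and in the 5 DP autonomy libraries from 5032273 to 20076446. In turnover, the A and B libraries of RP1140 carry the same number, and so do those of RP1141. Nothing in the labels says that libraries come from separate animals. The p-values therefore measure the spread between these libraries, which may be technical. No RP number occurs in both conditions, so condition and RP number series cannot be told apart.

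Il2ra and the summed DP-stage markers separated DN3 from DP libraries, but RP1141B of DN3 turnover carried DP-stage transcripts as well. Il2ra, which encodes the CD25 chain that marks DN3 cells, lay between 256 and 632 CPM in the DN3 libraries and between 1.25 and 41.2 CPM in the DP libraries (CPM: reads of a gene relative to the TMM-scaled size of its library, with factors over the 18 libraries). Summed DP-stage markers (7 genes) ran from 208 to 1975 CPM in DN3 libraries and from 7971 to 9950 CPM in DP libraries. Summed DN3-stage markers (7 genes, Dntt the highest) did not separate the stages. They ran from 3059 to 6816 CPM in DN3 libraries and from 5170 to 6108 CPM in DP libraries. Rag1 and Rag2 of that list had higher means in DP than in DN3 cells of both conditions. In RP1141B of DN3 turnover, Cd4 stood at 135 CPM, against 0.421 to 1.96 CPM in the other 3 libraries of the group. Cd8a stood at 385 CPM there, against 2.53 to 7.34 CPM (39.0 to 71.6 CPM in DN3 autonomy), and Trac, the alpha chain constant gene, at 188 CPM, against 6.48 to 8.60 CPM. These levels were 17.2%, 17.4% and 35.4% of the DP turnover means. The same library was the highest of its group for every member except Cd3e, so the members' results that use DN3 turnover are given with and without it. The share of DP cells in that library was not tested. Summed markers of gamma-delta T cells lay between 3423 and 4380 CPM in DN3 turnover and between 2067 and 3144 CPM in DN3 autonomy. In bulk samples, fewer cells of a type and less RNA per cell cannot be told apart.

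Ptcra (ENSMUSG00000036858) lies on the minus strand of chromosome 17 from 46755663 to 46763712 in GRCm38. Cd3g (ENSMUSG00000002033) and Cd3d (ENSMUSG00000032094) are head-to-head neighbours on chromosome 9, Cd3g on the minus strand from 44969572 to 44980431 and Cd3d on the plus strand from 44981786 to 44987339. Their starts lie 1355 bp apart, and Cd3e (ENSMUSG00000032093) follows on the minus strand from 44998740 to 45009627. The promoters of Ptcra and of the divergent pair are shown because these 3 genes had different stage patterns, described below. Each sequence runs 5′ to 3′ on the gene's own strand, with 250 bases before and 50 after the RefSeq start in GRCm38.p6, at chr17:46763663-46763962 for Ptcra, chr9:44980382-44980681 for Cd3g and chr9:44981536-44981835 for Cd3d. Capitals mark E-boxes, the letters CANNTG, which read the same on both strands and which E proteins and their partners recognise.
Ptcra: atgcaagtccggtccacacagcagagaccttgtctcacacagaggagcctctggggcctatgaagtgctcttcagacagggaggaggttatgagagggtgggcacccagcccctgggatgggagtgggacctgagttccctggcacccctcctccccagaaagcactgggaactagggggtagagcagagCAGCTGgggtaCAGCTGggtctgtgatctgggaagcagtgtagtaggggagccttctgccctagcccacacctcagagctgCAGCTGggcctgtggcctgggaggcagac
Cd3g: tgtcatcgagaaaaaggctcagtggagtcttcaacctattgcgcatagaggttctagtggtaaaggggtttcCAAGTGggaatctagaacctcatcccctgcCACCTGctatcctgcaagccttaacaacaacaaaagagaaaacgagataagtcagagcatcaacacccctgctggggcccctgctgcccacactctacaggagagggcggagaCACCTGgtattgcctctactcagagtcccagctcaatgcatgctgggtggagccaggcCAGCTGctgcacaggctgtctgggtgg
Cd3d: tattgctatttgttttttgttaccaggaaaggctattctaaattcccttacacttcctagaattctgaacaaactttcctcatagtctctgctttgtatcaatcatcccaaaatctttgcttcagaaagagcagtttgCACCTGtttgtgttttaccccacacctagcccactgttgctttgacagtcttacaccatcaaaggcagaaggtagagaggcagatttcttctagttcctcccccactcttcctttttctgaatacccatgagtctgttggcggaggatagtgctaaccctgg
The Ptcra window holds 3 E-boxes, all CAGCTG, the Cd3g window 4 and the Cd3d window 1. An E-box occurs in 72.31% of the 32851 RefSeq promoter windows of this length. The narrower form CACCTG, with its reverse complement CAGGTG and a subset of CANNTG, matched 2 times in Cd3g, 1 time in Cd3d and nowhere in the Ptcra window, and occurs in 20.21% of all windows. A match describes the letters of the window and shows no binding.

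The other members are spread over the genome. Cd247 (ENSMUSG00000005763) lies on the plus strand of chromosome 1 from 165788681 to 165877277, and Zap70 (ENSMUSG00000026117) on the same chromosome from 36761798 to 36782818. Lck (ENSMUSG00000000409) lies on the minus strand of chromosome 4 from 129548344 to 129573641, Lat (ENSMUSG00000030742) on the minus strand of chromosome 7 from 126363824 to 126369570, and Lcp2 (ENSMUSG00000002699) on the plus strand of chromosome 11 from 34046920 to 34092295. Exons of Cd247 share 3007 bases with Pou2f1 on the opposite strand. The labels do not state whether reads were counted by strand, so the Cd247 values are uncertain. Lcp2 shares 282 exon bases with 4930469K13Rik, which had 367 reads in all.

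Ptcra was the member with the largest difference between the stages. In DN3 turnover, its level was 249 CPM in RP1140A, 221 in RP1140B, 288 in RP1141A and 298 in RP1141B. In DN3 autonomy, it was 412 CPM in RP1133, 444 in RP1134, 590 in RP1135, 342 in RP1137 and 279 in RP1138. Only RP1138 fell inside the turnover range, and the other 4 autonomy libraries lay above it. The DN3 difference was 1.56-fold (log2 0.64, SE 0.20) and did not pass the edgeR quasi-likelihood test with Benjamini-Hochberg adjustment over all genes (adjusted p = 0.0521). Without RP1141B it was 0.70 on the log2 scale (adjusted p = 0.0590). It passed without autonomy library RP1138 (log2 0.77, adjusted p = 0.0270) and in the authors' deposited table (log2 0.62, adjusted p = 0.0350).

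In DP cells, the Ptcra level was 38.7, 47.4, 36.7 and 49.2 CPM in turnover libraries RP1140A, RP1140B, RP1141A and RP1141B. It was 71.3, 128, 80.9, 73.4 and 57.4 CPM in autonomy libraries RP1133, RP1135, RP1136, RP1137 and RP1138. The 2 groups did not overlap, and RP1135 was the highest. The fitted difference was 1.90-fold (log2 0.92, SE 0.25), with adjusted p = 0.0835 in edgeR and 0.00988 in the authors' deposited table. Il2ra lay between 1.25 and 14.8 CPM in DP turnover and between 17.2 and 41.2 CPM in DP autonomy (log2 1.92, adjusted p = 0.107 in edgeR). Its part in the DP Ptcra difference was not tested. From DN3 to DP, Ptcra fell 6.13-fold in turnover (log2 −2.62, SE 0.25, adjusted p = 2.21e-07 in edgeR, −2.52 without RP1141B) and 5.02-fold in autonomy (log2 −2.33, SE 0.22, adjusted p = 3.71e-08 in edgeR).

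**Figure D1:**
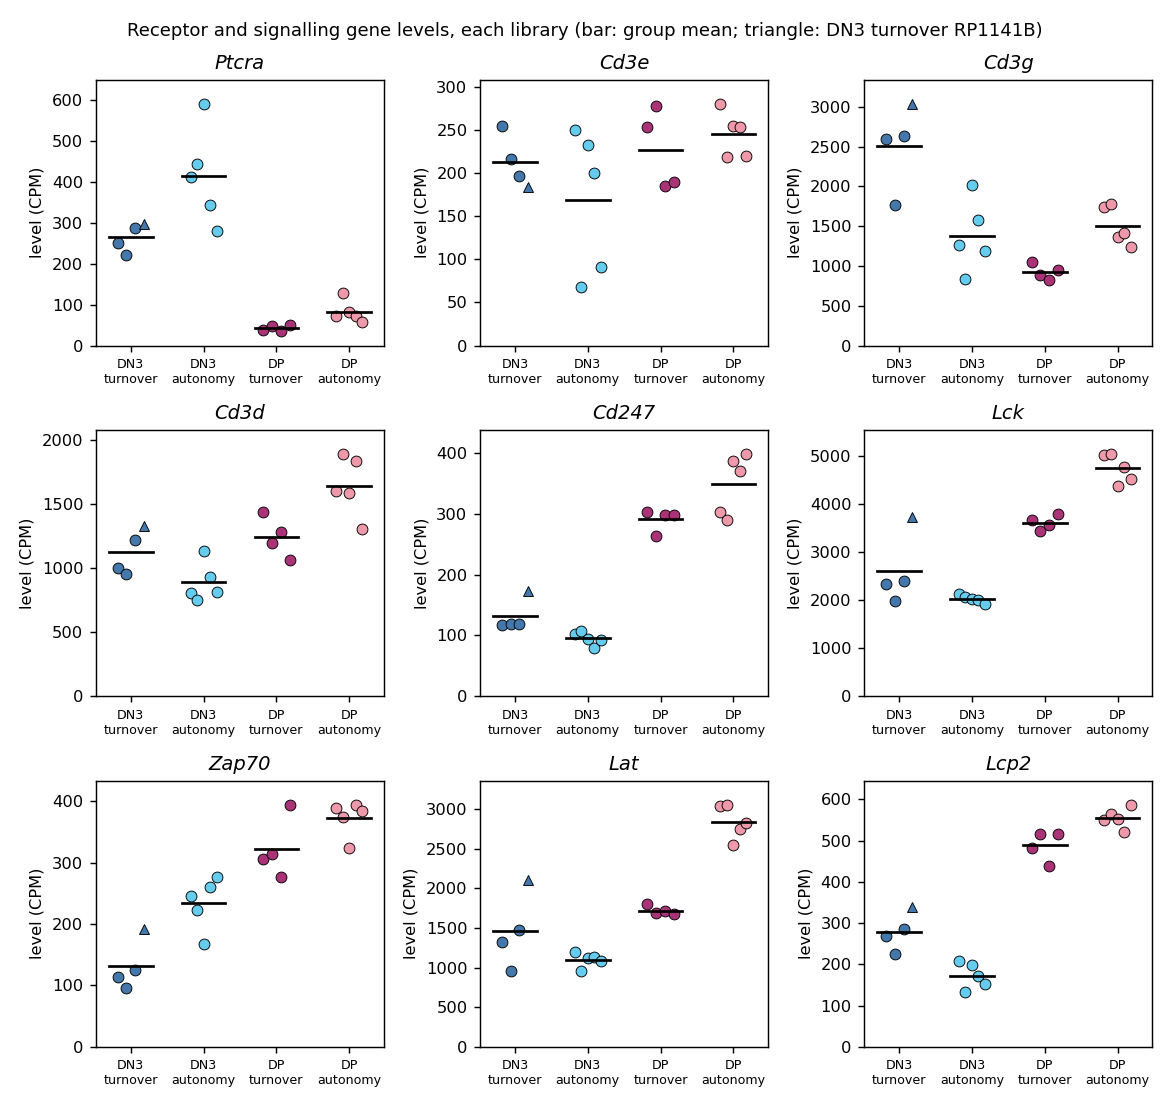
Level of each gene in CPM, 1 point per library, with the group mean as a bar and library RP1141B of DN3 turnover as a triangle. Ptcra is high in both DN3 groups and low in both DP groups, while the DP autonomy libraries of Lck and Lat lie above all DP turnover libraries.

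The ratio of Ptcra to Cd3e reads within a library does not depend on library scaling. In DN3 turnover the ratio was 0.979, 1.02, 1.47 and 1.63 in RP1140A, RP1140B, RP1141A and RP1141B. In DN3 autonomy it was 1.65, 6.49, 2.54, 1.71 and 3.07 in RP1133, RP1134, RP1135, RP1137 and RP1138. Every autonomy library was above every turnover library, although RP1133 exceeded RP1141B only narrowly. The mean log2 ratio rose from 0.31 ± 0.37 (SD, n = 4) to 1.43 ± 0.80 (SD, n = 5), a 2.17-fold difference, with p = 0.0159 in a two-sided exact permutation test. This p is the smallest that 4 against 5 libraries can give. Without RP1141B the log2 difference was 1.25 (p = 0.0357, two-sided exact permutation test). RP1134, with the highest ratio, had the lowest Cd3e level of all libraries.

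In DP turnover the ratio was 0.153, 0.171, 0.199 and 0.260 in RP1140A, RP1140B, RP1141A and RP1141B. In DP autonomy it was 0.255, 0.588, 0.318, 0.291 and 0.262 in RP1133, RP1135, RP1136, RP1137 and RP1138. The groups overlapped at RP1133 and RP1141B. The mean log2 ratio was −2.38 ± 0.33 (SD, n = 4) and −1.62 ± 0.49 (SD, n = 5), a 1.69-fold difference, with p = 0.0317 in a two-sided exact permutation test. The DP call was lost on leaving out 7 of the 9 libraries in turn, and both calls were lost with the A and B libraries summed, where 2 against 5 libraries cannot reach 0.05.

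**Figure D2:**
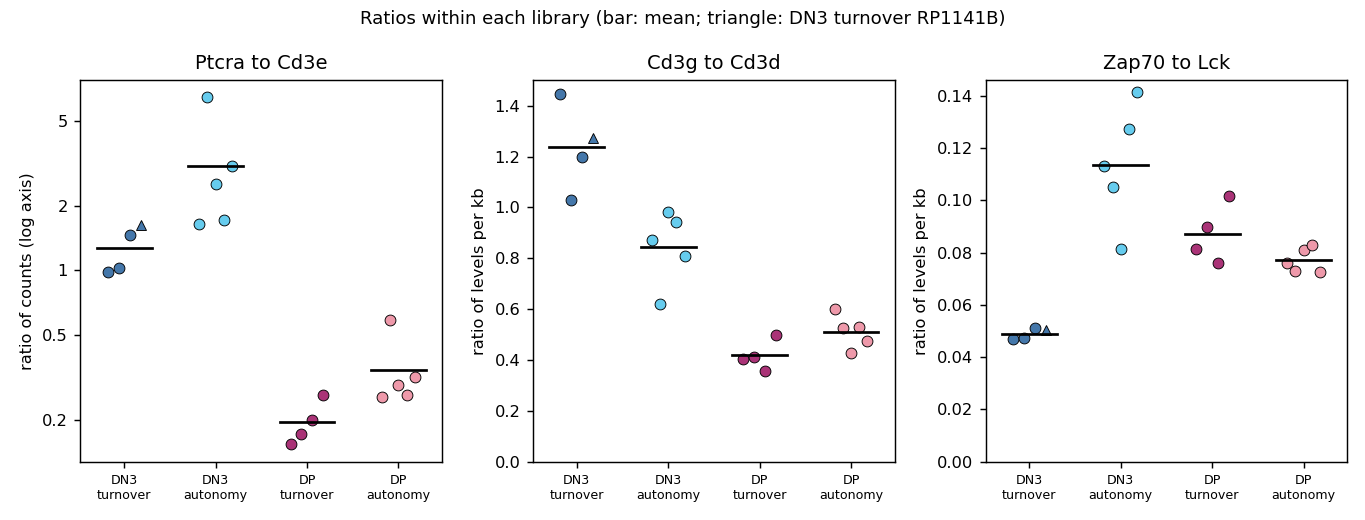
Ratios within each library, 1 point per library, with the mean as a bar: Ptcra to Cd3e reads on a log axis, and Cd3g to Cd3d and Zap70 to Lck as levels per kilobase of exon. The DN3 autonomy libraries lie above DN3 turnover for Ptcra to Cd3e and Zap70 to Lck, and below it for Cd3g to Cd3d.

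The CD3 chains did not move together. Cd3g, the gamma chain, stood at 2600 CPM in DN3 turnover library RP1140A, 1765 in RP1140B, 2630 in RP1141A and 3037 in RP1141B. In DN3 autonomy it stood at 1265 CPM in RP1133, 836 in RP1134, 2013 in RP1135, 1581 in RP1137 and 1183 in RP1138. The autonomy libraries were lower except RP1135, which lay above RP1140B. Cd3g fell 1.84-fold in DN3 autonomy (log2 −0.88, SE 0.23, adjusted p = 0.0245 in edgeR). The call was lost in 5 of the 9 fits that left out a library, among them the fit without RP1141B (log2 −0.77, adjusted p = 0.0563).

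In DP cells Cd3g went the other way. Its level was 1051, 886, 823 and 951 CPM in the turnover libraries and 1736, 1783, 1359, 1413 and 1243 CPM in autonomy libraries RP1133, RP1135, RP1136, RP1137 and RP1138. The groups did not overlap. Cd3g rose 1.61-fold (log2 0.69, SE 0.12, adjusted p = 0.0190 in edgeR), and the call was lost without turnover library RP1140B, RP1141A or RP1141B (adjusted p = 0.0777, 0.0643 and 0.0532). The autonomy effect on Cd3g was larger in DP than in DN3 by 1.57 on the log2 scale (SE 0.29, adjusted p = 0.00277 for the interaction in edgeR). The interaction passed without each of the 18 libraries in turn.

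Cd3d, the delta chain gene next to Cd3g, had smaller differences. In DN3 turnover it stood at 997, 953, 1219 and 1326 CPM in RP1140A, RP1140B, RP1141A and RP1141B, and in DN3 autonomy between 750 and 1136 CPM with a median of 812 (log2 −0.35, SE 0.16, adjusted p = 0.160 in edgeR, −0.26 without RP1141B). In DP turnover it stood at 1440, 1194, 1278 and 1063 CPM, and in DP autonomy between 1302 and 1886 CPM with a median of 1604 (log2 0.39, SE 0.12, adjusted p = 0.107 in edgeR). Neither difference passed in edgeR with all libraries, and the groups overlapped in both cell types. The DP difference passed without autonomy library RP1138 (log2 0.46, adjusted p = 0.0446 in edgeR). It also passed in the authors' deposited table (log2 0.38, adjusted p = 0.0495). Per kilobase of exon, the ratio of Cd3g to Cd3d level was 1.03 to 1.45 in DN3 turnover, 0.619 to 0.984 in DN3 autonomy, 0.358 to 0.497 in DP turnover and 0.428 to 0.601 in DP autonomy. This ratio was chosen after its values were seen and carries no test.

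Cd3e, the epsilon chain found in every CD3 dimer, did not pass in any comparison. Its level was 255, 216, 196 and 183 CPM in the DN3 turnover libraries. In DN3 autonomy it was 249, 68.3, 232, 200 and 90.8 CPM in RP1133, RP1134, RP1135, RP1137 and RP1138. RP1134 and RP1138 were well below the others, and the DN3 log2 difference of −0.35 had an interval from −1.05 to 0.34 and was −0.42 without RP1141B. In DP cells the level ran from 185 to 277 CPM in turnover and from 218 to 280 CPM in autonomy (log2 0.10, interval −0.23 to 0.44).

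Cd247, the zeta chain, stood at 117, 119, 118 and 173 CPM in DN3 turnover libraries RP1140A, RP1140B, RP1141A and RP1141B. The DN3 autonomy libraries stood at 103, 107, 94.1, 78.6 and 92.9 CPM in RP1133, RP1134, RP1135, RP1137 and RP1138. The groups did not overlap, yet the difference did not pass (log2 −0.48, SE 0.17, adjusted p = 0.0719 in edgeR), and it was −0.31 without RP1141B (adjusted p = 0.189). In DP cells Cd247 ran from 265 to 304 CPM in turnover and from 289 to 398 CPM in autonomy (log2 0.25, adjusted p = 0.353 in edgeR). From DN3 to DP it rose 2.21-fold in turnover and 3.68-fold in autonomy (adjusted p = 1.75e-05 and 3.52e-09 in edgeR), and by 1.34 on the log2 scale in turnover without RP1141B.

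Lck, the kinase that starts the cascade, had the highest level per kilobase of the 9 genes in every group. In DN3 turnover it stood at 2344, 1979, 2396 and 3724 CPM in RP1140A, RP1140B, RP1141A and RP1141B, and in DN3 autonomy between 1917 and 2126 CPM with a median of 2018. RP1141B stood apart, and the DN3 log2 difference of −0.37 (adjusted p = 0.165 in edgeR) was −0.15 without it (adjusted p = 0.459). In DP turnover Lck stood at 3661, 3434, 3554 and 3784 CPM, and in DP autonomy at 5030, 5034, 4374, 4764 and 4515 CPM in RP1133, RP1135, RP1136, RP1137 and RP1138. All 5 autonomy libraries were above all 4 turnover libraries. Lck rose 1.30-fold in DP autonomy (log2 0.38, SE 0.07, adjusted p = 0.0163 in edgeR). The call was lost without turnover library RP1140B (adjusted p = 0.0777), without the low-count filter (0.0668) and in a fit of all 18 libraries (0.110).

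Zap70, the kinase that binds phosphorylated CD3 and zeta tails, was the member that rose in DN3 autonomy. It stood at 113, 95.4, 125 and 192 CPM in DN3 turnover libraries RP1140A, RP1140B, RP1141A and RP1141B. In DN3 autonomy it stood at 246, 222, 168, 261 and 277 CPM in RP1133, RP1134, RP1135, RP1137 and RP1138. The ranges met only because RP1141B exceeded RP1135. Zap70 rose 1.77-fold (log2 0.83, SE 0.21, adjusted p = 0.0224 in edgeR), and without RP1141B the log2 difference was 1.07 (adjusted p = 0.00561). The call was lost in 5 of the 9 fits that left out 1 library, with adjusted p up to 0.0759. In DP cells Zap70 ran from 277 to 393 CPM in turnover and from 324 to 394 CPM in autonomy (log2 0.20, adjusted p = 0.497 in edgeR).

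The level of Zap70 relative to Lck was also set out within each library. Per kilobase, the ratio of Zap70 to Lck level was 0.0471 to 0.0512 in DN3 turnover, RP1141B included, and 0.0815 to 0.141 in DN3 autonomy. It was 0.0762 to 0.102 in DP turnover and 0.0726 to 0.0831 in DP autonomy. The ratio was chosen after its values were seen and is a description. The autonomy effect on Zap70 differed between DP and DN3 by −0.63 on the log2 scale and did not pass (adjusted p = 0.176 in edgeR), but it was −0.89 and passed without RP1141B (adjusted p = 0.0353).

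Lat, the membrane scaffold, had the smallest adjusted p among the members in DP cells. In DP turnover it stood at 1808, 1684, 1712 and 1678 CPM in RP1140A, RP1140B, RP1141A and RP1141B. In DP autonomy it stood at 3040, 3055, 2548, 2751 and 2827 CPM in RP1133, RP1135, RP1136, RP1137 and RP1138. The groups were far apart. Lat rose 1.64-fold (log2 0.71, SE 0.08, adjusted p = 0.00215 in edgeR), and the call was kept without each of the 9 libraries in turn and with the A and B libraries summed. In DN3 turnover Lat stood at 1318, 954, 1480 and 2108 CPM, and in DN3 autonomy between 961 and 1201 CPM with a median of 1120. RP1141B was again the highest, and the DN3 log2 difference of −0.43 (adjusted p = 0.153 in edgeR) was −0.20 without it (adjusted p = 0.431). Without RP1140B, the lowest DN3 turnover library, the difference was −0.59 and passed (adjusted p = 0.0405 in edgeR).

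Lcp2, the gene of SLP-76, fell in DN3 autonomy. It stood at 268, 225, 285 and 339 CPM in DN3 turnover libraries RP1140A, RP1140B, RP1141A and RP1141B. The DN3 autonomy libraries stood at 208, 133, 199, 171 and 151 CPM in RP1133, RP1134, RP1135, RP1137 and RP1138. The groups did not overlap. Lcp2 fell 1.63-fold (log2 −0.71, SE 0.17, adjusted p = 0.0154 in edgeR), and the call was kept without each of the 9 libraries in turn, at −0.60 without RP1141B (adjusted p = 0.0407), but lost with the A and B libraries summed (adjusted p = 0.0658). In DP cells Lcp2 ran from 439 to 517 CPM in turnover and from 520 to 586 CPM in autonomy, apart but by a small step (log2 0.17, adjusted p = 0.441 in edgeR).

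Counted over the 9 genes, 1 rose and 2 fell in DN3 autonomy and 6 did not pass, beside 14.9% of the 10766 genes tested (6.53% higher and 8.35% lower). The groups did not overlap for Cd247 and Lcp2, beside 18.3% of all genes. Their median log2 difference was −0.37, against −0.05 over all genes tested. With the A and B libraries summed, no member passed in DN3 cells, where Lcp2 had adjusted p = 0.0658, Zap70 0.0756 and Cd3g 0.0878. In DP autonomy 3 rose, none fell and 6 did not pass, beside 1.72% of the 10339 genes tested (0.861% higher and 0.861% lower), and the median log2 difference was 0.38, against −0.02 over all genes. The DP groups did not overlap for 5 members, Ptcra, Cd3g, Lck, Lat and Lcp2, beside 8.20% of all genes. Markers of other cells moved with these groups. Summed mature T-cell markers (6 genes, none at 0 in every DP autonomy library, Il7r at 0 in DP turnover) ran from 229 to 269 CPM in DP turnover and from 293 to 436 CPM in DP autonomy. Summed macrophage and dendritic markers (11 genes) ran from 9.74 to 40.9 CPM and from 26.1 to 256 CPM, with C1qc at 0 in every DP turnover library and at 3.93 to 32.7 CPM in DP autonomy, and Adgre1 at 0 in DP autonomy. In DN3 cells, summed NK markers (8 genes, Klrd1 and Klrk1 at 0) were almost all Gzma. They ran from 1225 to 1702 CPM in turnover and from 1835 to 2523 CPM in autonomy. Nkg7 of the same list went the other way, from a mean of 142 CPM in DN3 turnover to 18.7 CPM in DN3 autonomy. In the same groups, macrophage and dendritic markers ran from 47.3 to 59.5 CPM and from 8.85 to 23.0 CPM. Of that list, only Lyz2 and H2-Ab1 had a mean of at least 10 CPM in DN3 turnover. Their means were 26.3 and 19.0 CPM there, against 4.20 and 4.91 CPM in DN3 autonomy. Cd68 went the other way (3.56 and 4.95 CPM), and Adgre1 and C1qc were at 0 in every DN3 turnover library. Mature T-cell markers ran from 434 to 608 CPM in DN3 turnover and from 218 to 469 CPM in DN3 autonomy. Thymic epithelium markers (5 genes, mostly Epcam, Krt5 at 0) ran from 90.1 to 113 CPM and from 28.8 to 83.3 CPM. The part of these markers in the members' differences was not tested. All 9 fitted DP differences were above 0, and 7 of the 9 DN3 differences were below 0. With the A and B libraries summed, Lat alone of the 9 passed in DP cells.

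**Figure D3:**
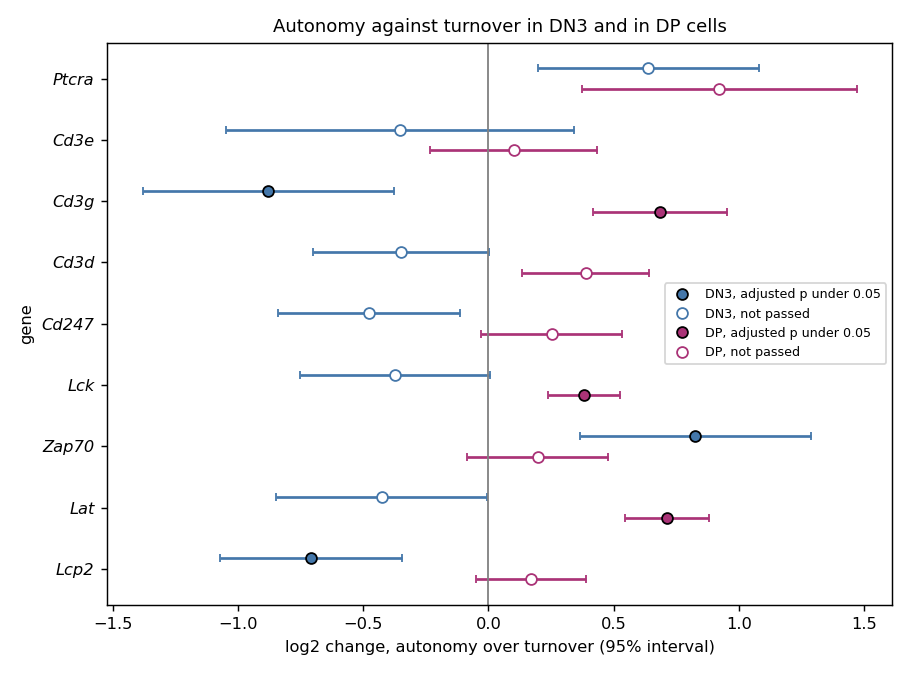
Fitted log2 difference of autonomy over turnover for each gene in DN3 and in DP libraries, with 95% intervals and filled points where the adjusted p is under 0.05. Cd3g lies below 0 in DN3 (−0.88) and above 0 in DP (0.69), and Ptcra lies above 0 in both.

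The difference of the autonomy effect between the cell types was tested in a single model of the 18 libraries. It was above 0, meaning higher in DP than in DN3, and passed for 6 members, beside 5.49% of the 11521 genes tested (2.88% above 0 and 2.61% below 0). Besides Cd3g, these were Lat (log2 1.14, SE 0.22, adjusted p = 0.00453), Lcp2 (0.88, SE 0.20, 0.0135) and Lck (0.76, SE 0.19, 0.0224), all from edgeR. Cd3d (0.74, adjusted p = 0.0432 in edgeR) and Cd247 (0.73, 0.0460) passed narrowly, and were kept in 4 and 5 of the 18 fits that left out a library. Without RP1141B, 5 members passed, Cd3g, Lat, Lck and Lcp2 above 0 and Zap70 below 0. With the A and B libraries summed, Cd3g and Lat passed. Ptcra did not pass (log2 0.29, interval −0.36 to 0.94, 0.21 without RP1141B).

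The stage comparison asked how the members differ between DP and DN3 cells of the same condition. In turnover, 4 members were higher in DP, 2 were lower and 3 did not pass, beside 34.9% of all genes tested (15.8% higher and 19.1% lower). The turnover groups did not overlap for 5 members, beside 34.7% of all genes. In autonomy, 6 were higher, 1 was lower and 2 did not pass, beside 49.0% (23.7% higher and 25.2% lower), and the groups did not overlap for 7 members, beside 37.9%. The zeta chain, both kinases and Lcp2 were higher in DP in both conditions. Zap70 was 2.45-fold higher in turnover and 1.59-fold in autonomy, and Lcp2 1.75-fold and 3.22-fold (adjusted p up to 0.00314 in edgeR). Without RP1141B the turnover differences of Zap70 and Lcp2 were 1.57 and 0.95 on the log2 scale. Lck was 1.38-fold higher in turnover (log2 0.47, SE 0.14, adjusted p = 0.0148 in edgeR) and 2.34-fold in autonomy (log2 1.23, SE 0.13, adjusted p = 1.78e-07). Its turnover call was lost without DN3 turnover library RP1140A, RP1140B or RP1141A (adjusted p = 0.0541, 0.0517 and 0.0510), and without RP1141B the difference was 0.72 (adjusted p = 1.59e-05).

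The CD3 genes differed in their stage pattern. Cd3g was 2.70-fold lower in DP than in DN3 cells in turnover (log2 −1.43, SE 0.22, adjusted p = 4.04e-05 in edgeR). In autonomy the stage difference was 0.13 on the log2 scale, with an interval from −0.26 to 0.53. Without RP1141B the turnover difference was −1.29 (adjusted p = 0.00021). Cd3d differed by 0.15 in turnover (interval −0.18 to 0.47, 0.27 without RP1141B) and by 0.89 in autonomy (SE 0.14, adjusted p = 3.01e-05 in edgeR). Lat rose 2.59-fold in autonomy (log2 1.37, SE 0.15, adjusted p = 2.74e-07 in edgeR). In turnover its stage difference was 0.23 (adjusted p = 0.294), but 0.49 without RP1141B (adjusted p = 0.00798).

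**Figure D4:**
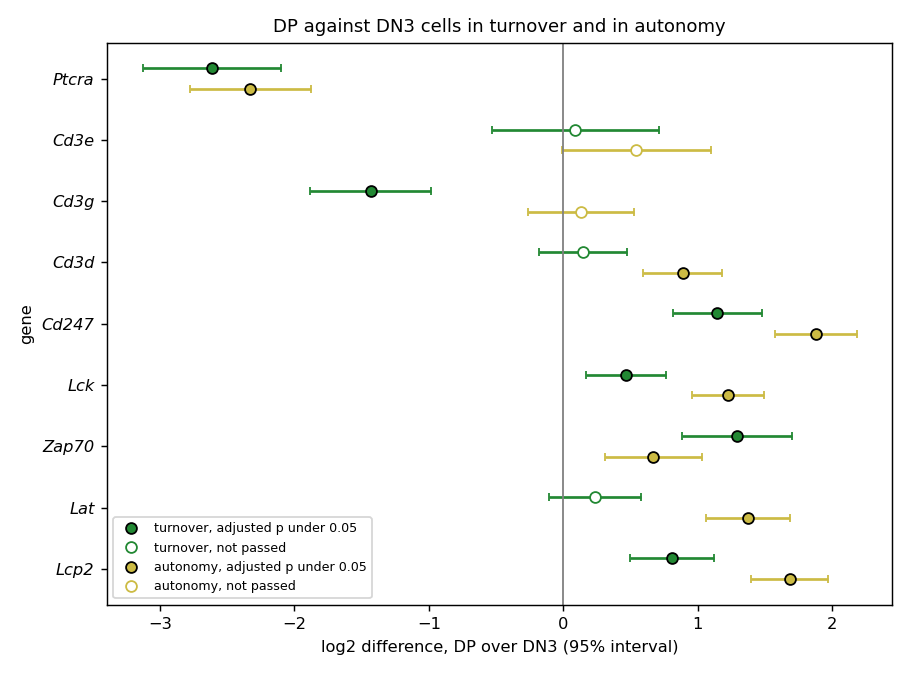
Fitted log2 difference of DP over DN3 for each gene in turnover and in autonomy, with 95% intervals and filled points where the adjusted p is under 0.05. Ptcra lies below −2 in both conditions, and Cd3g lies at −1.43 in turnover and 0.13 in autonomy.

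Levels can be compared between genes only per length, so CPM was divided by the kilobases of exon in GENCODE M21. All annotated exons of a gene were merged for this. The merged lengths ran from 1283 bases for Ptcra to 5329 for Cd247, which shares 3007 of them with Pou2f1. The order of the genes depends on these lengths. In DN3 turnover the mean levels per kilobase ran from 891 for Lck, 767 for Cd3g, 619 for Cd3d and 529 for Lat to 206 for Ptcra, 62.7 for Lcp2, 52.1 for Cd3e, 43.9 for Zap70 and 24.7 for Cd247. The ranges of the first 4 overlapped from neighbour to neighbour, and Ptcra stood apart from the genes on both sides. In DP turnover Lck led at 1232, followed by Cd3d at 685, Lat at 622 and Cd3g at 284, and Ptcra was last at 33.5. In DP autonomy Lat at 1028 and Cd3d at 905 followed Lck at 1619, and the lowest 3 genes, Cd247, Ptcra and Cd3e, overlapped between 44.7 and 99.9. In DN3 autonomy Zap70 at 78.4 stood in the place that Lcp2 held in DN3 turnover, and Lcp2 at 38.7 overlapped with Cd3e at 41.2.

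**Figure D5:**
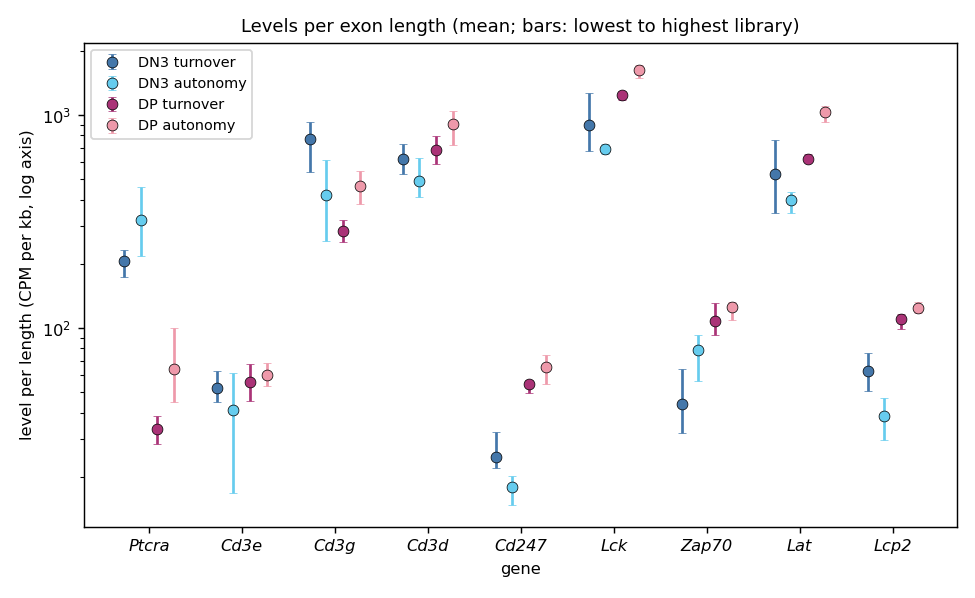
Mean level of each gene in CPM per kilobase of exon on a log axis, with bars from the lowest to the highest library of each group. Lck is highest in all 4 groups, and Ptcra is the only gene whose DN3 ranges both lie above both DP ranges.

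Across the 4 groups, Ptcra ran from DN3 autonomy (413 ± 117 CPM, SD, n = 5) through DN3 turnover (264 ± 35.4, n = 4) and DP autonomy (82.2 ± 27.0, n = 5) to DP turnover (43.0 ± 6.22, n = 4). The ranges of the DN3 groups overlapped, and the other neighbours stood apart. Lcp2 separated all 4 groups, from DP autonomy (555 ± 24.0) and DP turnover (489 ± 36.5) to DN3 turnover (279 ± 47.0) and DN3 autonomy (172 ± 31.7). Cd3e overlapped at every step.

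For each member the genes with the most similar pattern were found by the root-mean-square difference of log2 CPM, each gene centred on its own mean, over 18 libraries and 11520 genes. Genes near Ptcra were Mrto4 (0.40) and Ppat (0.42), and its nearest member, Cd3g, was far off at 1.15. Lck and Lat were near each other at 0.15, with Sirt7 at 0.14 from Lck. Cd247 was nearest to Ccm2 (0.19) and Lcp2 to Il17ra (0.19), and Cd247 and Lcp2 lay 0.26 apart. Cd3g was nearest to Tapbp (0.26), Cd3d to Frg1 (0.17), Zap70 to Edem1 (0.20) and Cd3e to Atf7ip (0.28). These values describe 18 libraries that share 4 groups.

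The wider pathway was read from 65 further genes in 7 lists of receptor chains, coreceptors, kinases, adaptors, effectors, regulators and other ITAM chains. In DN3 autonomy 2 of the 62 tested rose and 13 fell, which is 24.2% beside 14.9% of all genes, with a median log2 difference of −0.55. Among the receptor chains, Trbc1, a beta chain constant gene, fell from 1118 ± 244 to 352 ± 129 CPM (log2 −1.68), and Trdc, the delta chain constant gene, from 287 to 103 CPM (log2 −1.49). Trbc1 and Trbc2 are near-identical and can share reads, so the Trbc1 value is uncertain. Trbc2 stood at 1186 and 1037 CPM and did not pass (log2 −0.20, adjusted p = 0.421 in edgeR). Of the gamma-delta markers, a list that includes Trdc and Blk, 4 of 6 tested were lower past the threshold in DN3 autonomy. Tcrg-C4 of that list was not lower, at a mean of 809 CPM in DN3 turnover and 840 CPM in DN3 autonomy. The part of gamma-delta cells in these falls was not tested.

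Of the other proximal kinases in DN3 autonomy, Fyn, a relative of Lck, rose from 22.1 to 44.8 CPM (log2 1.01, adjusted p = 0.0431 in edgeR). Blk (log2 −1.64), the Tec-family kinase Tec (−1.54) and Syk (−1.10), a relative of Zap70, fell. Among the adaptors, Lime1 fell from 59.6 ± 5.75 to 18.3 ± 2.47 CPM (log2 −1.71, adjusted p = 0.000226 in edgeR), and Lat2, a relative of Lat, from 16.9 to 1.79 CPM (log2 −3.23). Tespa1 (−0.67), the exchange factor Vav1 (−0.49), the diacylglycerol kinase Dgkz (−0.71) and the adaptor Sla2 (−0.64) also fell. The adhesion receptor gene Cd2 rose (log2 3.06), from a mean of 29.1 to 244 CPM, with 86.9 CPM in the highest turnover library. Without RP1141B, 11 of these 15 calls were kept, and Cd2 had a log2 difference of 4.63. Tespa1, Vav1, Dgkz and Sla2 no longer passed (adjusted p = 0.0921, 0.0848, 0.0540 and 0.0862 in edgeR). Without that library 5 genes were higher and 11 lower of 64 tested, 25% beside 12.9% of all genes. Newly higher were Cd8a (log2 3.37, adjusted p = 0.000684 in edgeR), Cd8b1 (2.63, 0.00201) and Txk (2.13, 0.0342). With RP1141B their log2 differences were −0.80, −0.79 and −0.75 and did not pass. Pag1 and Dok1 were newly lower (adjusted p = 0.0373 and 0.0432 in edgeR).

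In DP autonomy 4 of the 60 tested rose and none fell, which is 6.67% beside 1.72%. They were Cd2 (log2 1.15), the TCR-associated adaptor Trat1 (0.61), Trac (0.59) and Cd8b1 (0.50). Trat1 stood at 558 ± 19.1 CPM in turnover and 858 ± 122 CPM in autonomy. No effector and no regulator of the lists passed in DP cells, out of 12 and 19 tested. The interaction passed for 6 of the 63 tested, all above 0, which is 9.52% beside 5.49% of all genes (2.88% above 0), among them Lime1 (1.79), Trat1 (1.16), Sla2 (1.05), Tespa1 (0.96) and Vav1 (0.78). Without RP1141B, 3 of these 6 calls were kept, those of Lime1, Trat1 and Sla2. Another 3 genes then passed below 0, which made 9.38% of 64 tested beside 3.58% of all genes. They were Cd2 (log2 −3.50, adjusted p = 1.39e-05 in edgeR), Cd8a (−3.475, 1.385e-05) and Cd8b1 (−2.15, 0.00179).

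Between the stages, 29 of the 63 pathway genes tested were higher in DP and 6 lower in turnover, and 43 higher and 4 lower in autonomy, 55.6% and 74.6% beside 34.9% and 49.0% of all genes. Rasgrp1, which activates Ras after receptor engagement, was 5.40-fold higher in turnover and 5.54-fold in autonomy. Themis, a DP-stage adaptor, rose by 1.86 and 1.71 on the log2 scale, and Cd5, a negative regulator, by 2.72 and 2.98. Cblb, a ubiquitin ligase that restrains the pathway, went the other way at −2.44 and −1.31. Blk had no reads in any DP library, against 16.6 to 32.3 CPM in DN3 turnover. Without RP1141B, 32 of the 35 turnover stage calls were kept.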

How the data were processed

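RNA sequencing of 18 libraries was deposited as whole-number read counts per gene by the authors, with no normalization. The tools named are HISAT2, featureCounts, FastQC and DESeq2, with the builds mm10 and GRCm38 and without versions or settings, per the submitters' processing notes. The authors also deposited, per the file headers, a DESeq2 table per cell type with log2 fold changes, p-values, a mean normalized signal and a test score; only the log2 and p columns are quoted, each time by source.

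Counts were fitted with edgeR 4.0.16 under R 4.3.3 (quasi-likelihood test, TMM, filterByExpr, Benjamini-Hochberg over all genes tested, threshold 0.05), within DN3 or DP libraries for autonomy against turnover, and in a single model of 18 libraries for stage differences and the interaction. The code was tested on simulated data. The log2 ratio of Ptcra to Cd3e counts (0.5 added to each) was compared by exact permutation with SciPy 1.17.1. Intervals are 95% intervals of the fit.

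The members, lists and tests were chosen with earlier results of these data known. Named are all members, their 3 nearest genes (the nearest quoted) and, of up to 3 genes per pathway list, comparison and direction past the threshold with at least 10 CPM, a selection for length. A few genes chosen this way are not reported here. Summed marker lists not given beside the results were B cell (674 to 1713 CPM over all libraries, mostly Ighm) and erythroid (1.06 to 9.10 CPM). Whether DN3 and DP libraries with the same label come from the same animal is not stated, and the main fits were not paired. The correlation of their deviations could not settle it. Alternatives were DESeq2 1.42.0 size factors and its Wald test, no filter, summed A and B libraries, other sample scopes, a replicate block and leaving out each library.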

Additional observations from a re-analysis of the deposited data

Results flagged for a closer look

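For 6 genes the autonomy effect differed between DP and DN3 cells by the interaction test in edgeR, as log2 differences of 1.57 for Cd3g, 1.14 for Lat, 0.88 for Lcp2, 0.76 for Lck, 0.74 for Cd3d and 0.73 for Cd247. Without library RP1141B of DN3 turnover, which carried DP-stage transcripts, they were 1.44, 0.89, 0.75, 0.52, 0.63 and 0.56, and the Cd3d and Cd247 calls were lost (adjusted p = 0.108 and 0.114).

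A library stood far from the rest of its group in 3 of the 36 combinations of gene and group examined, where chance flags about 1 in 20. Cd247 was highest in RP1141B among the DN3 turnover libraries, at 173 CPM. Cd247 was lowest in RP1140B among the DP turnover libraries, at 265 CPM. Zap70 was lowest in RP1136 among the DP autonomy libraries, at 324 CPM.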

How the results depend on the processing

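With the A and B libraries summed, 0 members and 507 genes passed in DN3 autonomy against turnover, 1 member and 16 genes in DP, 2170 genes in the turnover stage comparison, and 2 members (Cd3g and Lat) and 145 genes in the interaction, where fewer samples enter; the Ptcra to Cd3e log2 differences were 1.12 in DN3 and 0.75 in DP, with no p under 0.05 possible. The DESeq2 Wald test called 5 members and 716 genes in DP and 1024 genes in the interaction. Without the low-count filter the interaction called 3 members (Cd3d adjusted p = 0.0739, Cd247 0.0816 and Lck 0.0504 in edgeR). A fit of all 18 libraries called 1006 genes in DN3 and 279 in DP, with DP Cd3g at adjusted p = 0.0673 and Ptcra at 0.0335. With the replicate block, on the 16 libraries whose label occurs in both cell types, the interaction called 2 members (Cd3g and Lat) and 288 genes. Without the block on the same libraries, an alternative chosen after seeing the data, Cd3d (0.0851) and Cd247 (0.0682) were lost while Lck and Lcp2 passed. The 8 label pairs had correlations of deviations from 0.009 to 0.046, and the own label was the best match in 4 of them. Such low correlations cannot show whether libraries with the same label share an animal. The cause of these shifts was not tested. Leaving out each library gave 1 to 3 members and 811 to 1784 genes in DN3, 1 to 4 members and 33 to 252 genes in DP, 5 to 7 members and 3163 to 3940 genes in the turnover stage comparison, 7 to 8 and 5144 to 5544 in autonomy, and 4 to 6 and 424 to 684 in the interaction. The lowest DN3 count was without RP1140A of turnover, and the lowest DP count (33) without RP1140B of turnover. The Ptcra to Cd3e log2 difference ran from 0.80 to 1.30 in DN3 and from 0.55 to 0.91 in DP. Without DP turnover library RP1140B the Cd3e stage difference in turnover was −0.00067, in a range that reached 0.20. DN3 Ptcra passed with DESeq2 size factors (adjusted p = 0.0483), with the DESeq2 Wald test (0.0151) and without the filter (0.0416). DESeq2 size factors moved no count of calls by over 1.5 times.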
